A study of Caenorhabditis elegans with 5 samples.

Results

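The poly(A) RNA of wild-type (N2) *C. elegans* was described from 1 mRNA-seq library of whole young adults, grown at 19 °C and fed *E. coli* OP50. It is 1 of 5 mRNA-seq libraries in the study. The other 4 came from *met-2(n4256);set-25(ok5021)*, *hrde-1 (tm-1200)*, *set-32(ok1457)* and a triple mutant that joins the first and the last of these, and their levels are not given here. All values of the wild-type library were used, which were 20911 gene models of 20167 genes. The values are RPKM, the reads of a model scaled to its length in kilobases and to the depth of the library, so that levels of different genes can be compared per length. Wild type had no replicate. No difference between genes given here therefore has a replicate check, and the 95% intervals cover counting error only.

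A young adult hermaphrodite carries a gonad in which germ cells proceed from mitosis through meiosis to oocytes, beside a store of sperm made earlier in the larva. The somatic tissues are mainly the intestine, muscle, the hypodermis under the collagen cuticle, and neurons. The intestine makes yolk lipoproteins that the oocytes take up. The deposited table marks models as sperm, oocyte or intrinsic germline genes, the last being genes of the germline that belong to neither gamete, and leaves the other models unmarked. It also marks members of a pair of lists that the authors drew earlier from *hrde-1* mutants. The GRTS list holds targets of transcriptional silencing by germline nuclear RNAi, and the GRH list holds targets where heterochromatin depends on it. In this pathway, small RNAs bound to the nuclear Argonaute HRDE-1 direct silencing and methylation of histone H3 lysine 9 (H3K9me3) at matching genes.

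The library was shallow. The steps between low values implied that 1 read on a 1-kb model was worth 0.41 RPKM, and hence 2.44 M reads. A level of 10 RPKM then stood for 24.4 reads at 1 kb. A value of 0 allowed a level of up to 1.23 RPKM at 1 kb (3 reads). The median model had 3.36 RPKM. Of all models, 5184 (24.8%) were listed at 0, 13272 (63.5%) had at least 1 RPKM, 7763 (37.1%) at least 10, 1286 (6.15%) at least 100 and 128 (0.612%) at least 1000. These 128 models held 31.9% of the summed RPKM. Of the sum, 50% lay in 449 models and 90% in 4775. At this depth 3097 models above 0 rested on 3 reads or fewer, and such levels are not told apart from 0.

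The most abundant mRNAs were those of the translation machinery and of the adult cuticle. *eef-1A.1*, which encodes the elongation factor that brings aminoacyl-tRNA to the ribosome, was highest at 5349 RPKM (interval 5276 to 5424). *rps-23*, a protein of the small ribosomal subunit, followed at 4936 (4810 to 5065), and *rpl-27* of the large subunit at 3931 (3816 to 4049). The next levels were 3806 for *rpl-10*, 3675 for the cuticle collagen *col-20*, 3606 for *rps-8*, 3577 for the collagen *col-124*, 3446 for *rpl-41.2*, 3433 for *rps-15* and 3256 for *rps-14*. Neighbours in this order were often closer than their intervals: *rpl-41.2*, on 555 reads, spanned 3165 to 3745 and so covered the levels of the 3 models above it. These 10 models held 4.98% of the summed RPKM.

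Among the 30 highest genes, 20 encoded ribosomal proteins, 6 encoded cuticle collagens and 4 were others, and together they held 12.7% of the gene-level sum. The 4 others were *eef-1A.1*, *dct-16* (3140 RPKM), *rbm-3.2* (2535) and *cey-2* (2515), a Y-box RNA-binding protein of the germline. Of these 30 genes, 29 carried no germline mark, *rbm-3.2* being marked intrinsic, and none was on the GRTS or GRH list. Most of the 29 were models named with a transcript number, as in F31E3.5.1 for *eef-1A.1*. Such models carried no mark in several gene lists below, so absence of a mark need not mean absence from the germline. Among the 100 highest genes, down to 1238 RPKM, 62 were ribosomal proteins, 13 collagens and 25 others.

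**Figure D1:**
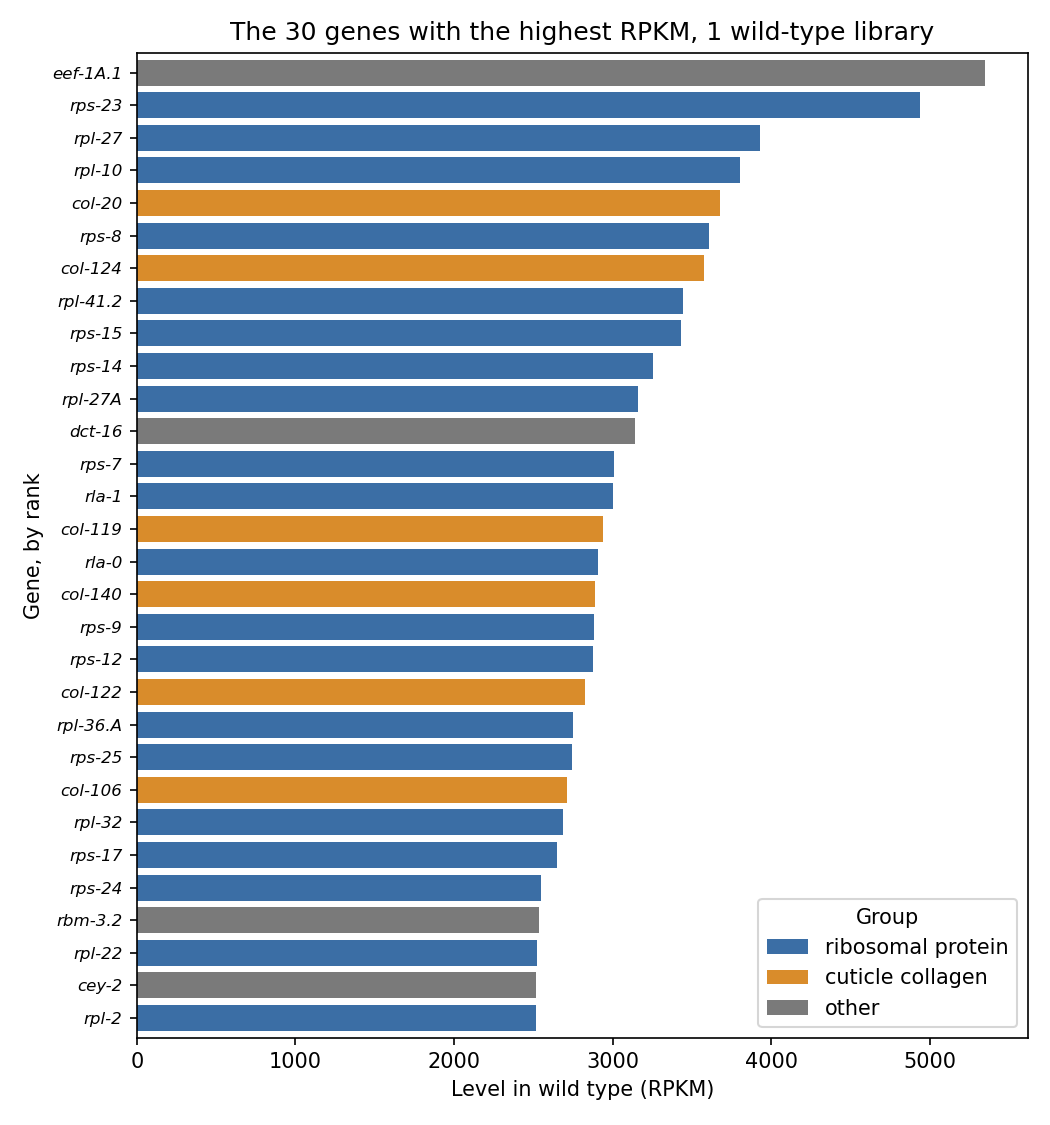
RPKM (x axis) of the 30 genes with the highest level in the wild-type library (y axis, ordered by rank), 1 bar a gene, coloured by gene group. Ribosomal proteins make up 20 of the 30, cuticle collagens 6, and the levels run from 5349 RPKM for *eef-1A.1* to 2515 for *rpl-2*.

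Ribosomal protein genes were high almost throughout. The 84 listed genes held 20.94% (20.85 to 21.03) of the summed RPKM, with a median of 1754 RPKM beside 3.03 over all genes. Of them, 69 had at least 1000 RPKM. The lowest were *rpl-24.2*, at 143 RPKM, *rpl-25.1* at 98.3 and *rpl-42* at 0.80, or about 1 read. *rplp-2.1* (1978 RPKM), whose symbol the list did not cover, was at the level of the group. The 17 translation factors held 1.94%. After *eef-1A.1* the highest were *iff-1*, an eIF5A gene of the germline, at 1961 RPKM, *eef-2*, the translocation factor, at 1831 and *eef-1B.1* at 1368. The lowest was *ife-5*, a cap-binding eIF4E protein and a GRTS and GRH gene, at 10.98 RPKM.

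Cuticle collagens ranged from the highest levels to 0. The 157 *col* genes held 5.87% (5.84 to 5.91) of the summed RPKM, and their median was 11.2 RPKM. *col-20*, *col-124*, *col-119* (2939 RPKM), *col-140* (2892), *col-122* (2824) and *col-106* (2715) stood among the 30 highest genes, whereas 26 collagen genes were listed at 0, among them *col-35*, *col-52* and *col-102*. Cuticle collagens are made in sets that differ between stages. Only 31 of the 157 had at least 100 RPKM and 15 had at least 1000.

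Yolk mRNAs stood out when reads rather than levels per length were ranked. All 6 vitellogenin genes, which encode the yolk lipoproteins, were abundant: *vit-5* had 1488 RPKM, *vit-2* 1479, *vit-6* 1415, *vit-4* 1153, *vit-3* 1141 and *vit-1* 602. They held 0.971% of the summed RPKM. With RPKM multiplied by model length, *eef-1A.1* stayed first with 0.890% of the reads, and the next were *vit-2* (0.790%), *vit-5* (0.784%), *vit-6* (0.774%), *vit-4* (0.600%) and *vit-3* (0.594%). *eef-2*, the chaperone *hsp-90*, *col-124* and *col-20* completed the 10 models with the most reads. The lists of the 10 highest models by level and by reads shared *eef-1A.1*, *col-124* and *col-20*. The median model length was 662 nucleotides among models of at least 1000 RPKM, 924 among models at 0 and 1032 over all.

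Proteasome, respiratory chain, chaperone, and tubulin and actin genes had medians well above the 3.03 RPKM over all genes, though some members were low. The 33 proteasome genes ranged from 16.3 RPKM (*rpn-6.2*) to 553 (*pas-5*) with a median of 212. The 40 nuclear genes of the respiratory chain had a median of 176 RPKM, led by *atp-2* (1232), *cyc-2.1* (787), *atp-5* (624) and *cox-5A* (571). Of 61 chaperone genes, *hsp-90* (1982 RPKM), *hsp-1* (1488), *hsp-3* (340) and *cct-1* (299) were highest. The heat-inducible *hsp-70* had 0.21 RPKM, *hsp-16.2* 0.85, and *hsp-16.20*, *hsp-16.21* and *hsp-16.41* were at 0. The 4 highest of 17 tubulin and actin genes were *act-1* (936 RPKM), *act-2* (901), *act-3* (866) and *tba-2* (851). *tba-6* and *tba-8* were at 0.

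Models with a germline mark were 11.4% of all models and held 12.6% of the summed RPKM, but the classes differed widely. The oocyte class (694 models, 3.32% of models) held 6.22% (6.19 to 6.26). The intrinsic class (901 models, 4.31%) held 5.77% (5.74 to 5.81). The sperm class (797 models, 3.81%) held 0.587% (0.572 to 0.603), and 0.382% when RPKM was multiplied by length. The 18519 unmarked models (88.6%) held the remaining 87.4% (87.36 to 87.47). Among the proteasome, eggshell and maternal RNA regulator genes, models named with a transcript number carried no mark. The shares of the marked classes may therefore be understated, which was not tested. The mean level was 70.3 RPKM in the oocyte class, 50.3 in the intrinsic class, 37.01 among unmarked models and 5.78 in the sperm class. In RNA from whole animals, fewer cells of a type and less RNA per cell cannot be told apart.

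**Figure D2:**
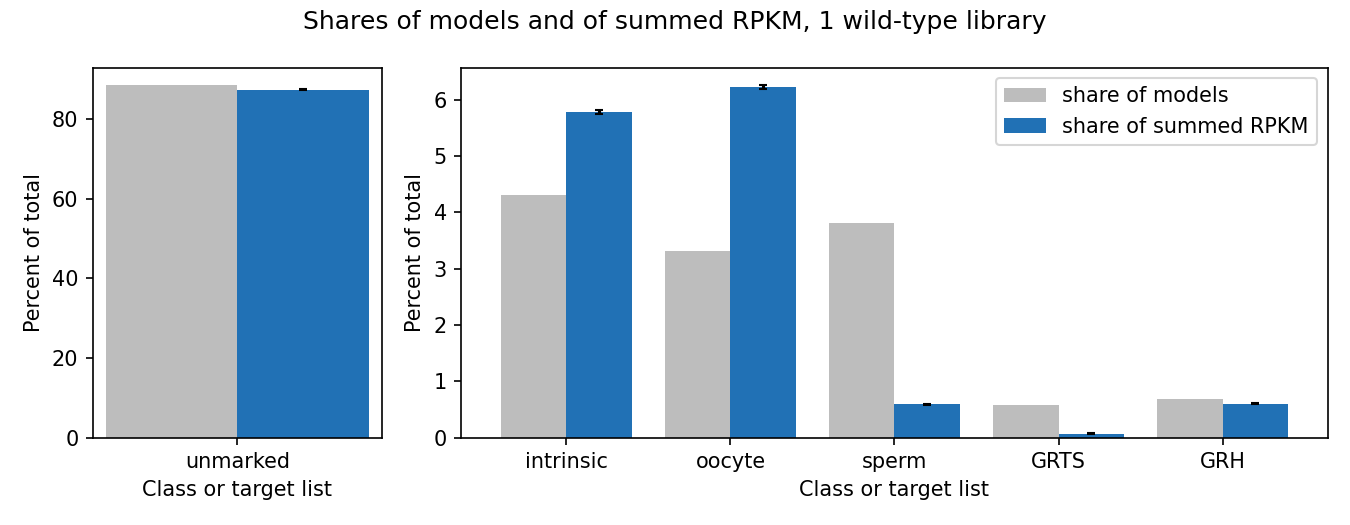
Share of models (grey) and share of summed RPKM (blue, with 95% intervals for counting error) in percent, for unmarked models (left panel, own scale) and for the 3 germline classes and both target lists (right panel). The blue bar exceeds the grey one for the oocyte and intrinsic classes and falls far below it for the sperm class (0.587% against 3.81%) and the GRTS list (0.0715% against 0.579%).

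Nearly every oocyte model was detected. Their median was 51.5 RPKM (48.1 to 54.4, an interval over models), 654 of 694 (94.2%) had at least 10 RPKM and 6 were at 0. By contrast 37.1% of all models had at least 10 RPKM. The highest were *cpg-2*, a chondroitin proteoglycan of the eggshell, at 1141 RPKM, *car-1*, an RNA-binding protein of germline granules, at 710, *pos-1*, a zinc-finger RNA-binding protein of embryonic fate, at 691 and *pas-5*, a proteasome subunit, at 553. They were followed by *T19H12.2* (455), *snr-2* (388), *rmd-1* (378), *ssb-1* (373), *ifet-1*, a translational repressor, at 359 and *gld-1*, which holds maternal mRNAs translationally silent, at 348. The 6 oocyte models at 0 included *spe-42*, a gene known to act in sperm at fertilization, so its mark goes against its known role. The others were *F54D12.4*, *F56D6.6*, *T08A9.4*, *W06D11.5* and *Y39H10A.4*.

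The intrinsic class was high in its middle, with more members at 0 than the oocyte class. Its median was 34.1 RPKM, beside 3.36 over all models. At least 100 RPKM was reached by 79 models (8.77%), against 6.15% of all models. At 0 were 99 (10.99%), against 0.865% of the oocyte class and 24.8% of all models. *rbm-3.2* (2535 RPKM) and *iff-1* (1961) alone held 9.93% of the RPKM of the class. They were followed by *rbm-3.1* (868), *cbd-1*, a chitin-binding protein of the eggshell, at 483, and *puf-5*, a Pumilio-family regulator of oocyte mRNAs, at 464. *wago-1*, an Argonaute of endogenous small RNAs, had 331 RPKM, *nol-58* 326, *glh-1*, a P granule helicase, 313, *rpt-2* 298 and *pfn-1* 286. Among the members at 0 was *fog-3*, which directs germ cells to become sperm. Of the 1336 listed chemoreceptor genes, 38 carried the intrinsic mark, beside 897 of all 20167 genes. Among these 38, *str-82*, *srj-24* and *srg-62* were at 0, while *sru-39* had 0.42 RPKM and *sre-44* 0.38.

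The sperm class was detected at low level. Its median was 1.76 RPKM (1.56 to 1.93), beside 3.36 over all models. Of 797 models, 110 (13.8%) were at 0, against 24.8% of all models. At least 1 RPKM was reached by 513 (64.4%), close to the 63.5% over all models. Only 102 (12.8%) had at least 10 RPKM, against 37.1% of all models, and none reached 100. The highest were *nspd-1* at 87.7 RPKM (63.95 to 117), a nematode-specific sperm peptide, and *ssq-4* at 84.7, *ssq-2* at 83.3 and *ssq-1* at 68.3, of a sperm-specific family. *ani-1*, an anillin that organizes actomyosin in the germline and embryo and thus no sperm-specific gene, had 80.3 RPKM. *msp-76* (63.1), *msp-57* (61.0) and *msp-40* (58.4) encode the major sperm protein, the motor and signal protein of nematode sperm, and were close to *Y59E9AR.7* (58.5) and *Y53G8AR.6* (58.4). The intervals of these 10 genes overlapped widely.

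Major sperm protein genes had quartiles of 32.3 and 52.1 RPKM, with a few genes far lower. All 30 *msp* genes were above 0, from 4.04 RPKM (*msp-63*) to 63.1 (*msp-76*), and their median was 44.8. Of them, 26 carried the sperm mark and 4 none. These genes are close copies, reads matching several of them were divided evenly by the authors, and single *msp* levels are therefore uncertain. Together they held 0.165% of the summed RPKM, and the marked ones 23.4% of the RPKM of the sperm class. The 24 genes of small sperm-protein families had a median of 20.8 RPKM, led by *nspd-1*, *nspd-2* (86.8), *nspd-5* (70.6) and *nspd-3* (60.0), and *nspd-8* was at 0. The 12 sperm markers had a median of 7.87 RPKM and 8 of them had at least 1 RPKM. The highest were *msp-10* (52.8), *msp-56* (40.4), *msp-142* (31.2) and *msp-3* (24.1). The lowest were near the detection limit: *fer-1* had 0.34 RPKM, *spe-9* 0.21, and *spe-38* and *spe-42* were at 0. The sperm phosphatases *gsp-4* and *gsp-3* had 9.84 and 8.08 RPKM.

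**Figure D3:**
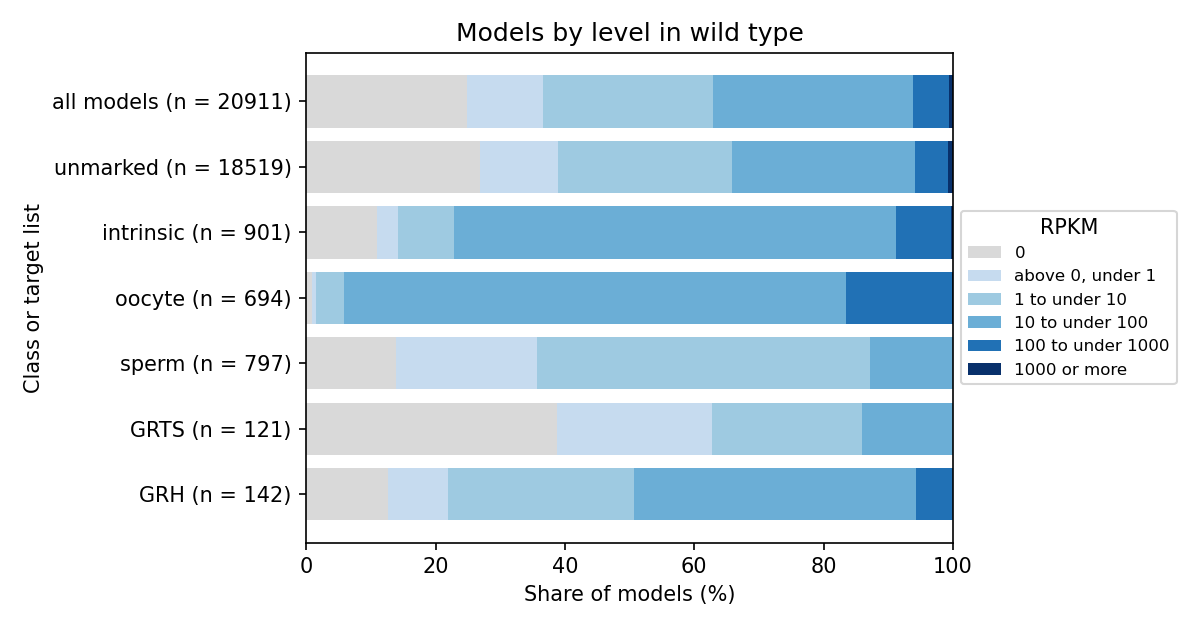
Share of models in percent (x axis) in 6 ranges of RPKM (grey at 0, darker blue for higher levels) for all models, the unmarked models, the 3 germline classes and the GRTS and GRH lists (y axis). The oocyte class has 6 models at 0 and 94.2% at 10 RPKM or more, the sperm and GRTS groups have no model at 100 RPKM or more, and the GRTS group has the largest part at 0 of the groups shown (38.8%).

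The germline marks did not cover all germline mRNA. Of 75 genes for the eggshell, maternal RNA regulation, P granules and meiosis, 26 were marked oocyte, 14 intrinsic and 35 carried no mark. The unmarked ones held 59.7% of the RPKM of these genes. They included *cey-2* (2515 RPKM), *oma-1* (129), a redundant regulator of oocyte maturation, and *pgl-1* (292), a core P granule protein. The yolk receptor of the oocyte, *rme-2* (489), was also unmarked. Among the 75 genes, models named with a transcript number were unmarked, as *oma-1* (C09G9.6.1) was, whereas *oma-2* (ZC513.6) was marked oocyte. Absence of a mark thus went in part with the naming of models, and the reason was not tested. The share of the germline in the summed RPKM is thus not given by the marked classes. Within the unmarked genes, each taken at its highest model, ribosomal proteins held 24.1% of the RPKM, collagens 6.76% and vitellogenins 1.12%.

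By function, the medians of the 4 germline groups had wide intervals over genes that overlapped in part, so no order of the groups is given. The 26 maternal RNA regulators held 1.35% of the summed RPKM with a median of 265 RPKM (93.9 to 464). *cey-2* was followed by *cgh-1*, a DEAD-box helicase that protects maternal mRNA, at 878 RPKM, *cey-3* at 790 and *car-1*. The lowest were *fbf-2* (11.4) and *fbf-1* (9.87), Pumilio-family proteins that maintain germline stem cells. The 17 eggshell and permeability-barrier genes had a median of 146 RPKM (99.1 to 482), and after *cpg-2* came *perm-2* (667), *cpg-1* (573) and *perm-4* (517). The 8 P granule genes ranged from *glh-3* (29.9) to *glh-1* (313), with a median of 121.975 whose interval was that whole range. The 24 meiosis genes had a median of 39.01 RPKM (27.9 to 53.7) and were led by the chromosome axis protein *him-3* (129), the synaptonemal complex protein *syp-4* (117), *htp-1* (84.2) and *htp-3* (68.0). All 75 genes were above 0.

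GRTS targets were low in wild type. The 121 models held 0.0715% (0.0676 to 0.0754) of the summed RPKM, less than their 0.579% of models. Their median was 0.61 RPKM, 47 (38.8%) were at 0, against 24.8% of all models, and 17 (14.05%) had at least 10 RPKM. The list was drawn from *hrde-1* mutants in earlier work, not from this library. It was defined by silencing that wild type has and those mutants lose, so a low level in wild type follows in part from the definition. The highest member was *ugt-22*, a predicted UDP-glucuronosyltransferase, at 71.0 RPKM (62.9 to 79.9). It was followed by *vps-39*, a vesicle-tethering subunit, at 59.2, *Y49E10.4* at 51.3, *C27C7.1* at 33.0, *eri-7* at 32.7, *pgph-1* at 32.2, *mus-101*, a replication and repair protein, at 31.1, *gbas-1* at 23.97, *Y47A7.2* at 19.8 and *K08D10.1* at 19.0. *eri-7* and *eri-6* (13.2) are known to give a joint helicase that acts in small RNA pathways. These 10 highest models held 66.6% of the RPKM of the list. Of its members 112 (92.6%) carried no germline mark, close to the 88.6% over all models. 2 were marked oocyte (*C27C7.1* and *K08D10.1*), 6 intrinsic and 1 sperm.

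GRH targets covered a wide range. The list, 27 models shared with GRTS and 115 on GRH alone, held 0.600% (0.588 to 0.612) of the summed RPKM, close to its 0.679% of models, with a median of 9.68 RPKM. Of its members, 18 (12.7%) were at 0, against 24.8% of all models. At least 10 RPKM was reached by 70 (49.3%), against 37.1% of all models. At least 100 RPKM was reached by 8 (5.63%), near the 6.15% over all models. *par-5*, a 14-3-3 protein required for cell polarity in the embryo, had 984 RPKM (949 to 1021) and held 20.9% of the list. Without it the share of the list was 0.475%. The next were *R06C1.4* at 260 RPKM, *mtch-1*, a predicted mitochondrial carrier, at 234, *vha-14*, a proton pump subunit, at 223, *ndub-7* at 196 and *ndab-1* at 192, both predicted subunits of respiratory complex I, *W08F4.3* at 133, *rpb-4*, a subunit of RNA polymerase II, at 123, *prg-1*, the Piwi-family Argonaute that binds piRNAs, at 98.8 and *npp-18*, a nuclear pore protein, at 94.9. A germline mark was carried by 26.8% of GRH models (26 intrinsic, 10 oocyte and 2 sperm) and 7.44% of GRTS models, beside 11.4% of all models. This difference was not tested. The 104 unmarked members held 76.3% of the RPKM of the list.

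The 27 models on both lists were at the low level of the GRTS list. Their median was 1.22 RPKM (0.0 to 2.71, an interval over models), 8 were at 0 and the highest was the collagen *col-157* at 18.2 RPKM. Models of the same gene, *pdfr-1*, were counted separately (1.22, 0.93 and 0.92 RPKM), and the median was the level of the first of them. The 94 models on the GRTS list alone had a median of 0.425 RPKM with 39 at 0, and the 115 on the GRH list alone a median of 13.5 with 10 at 0.

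Members of these lists lay next to each other along the chromosomes. Of the GRTS genes with a position in WBcel235, 87 of 111 (78.4%) were immediate neighbours of another GRTS gene, and of the GRH genes 103 of 125 (82.4%) of another GRH gene. None was X-linked, although 2666 of 19573 genes with a position were. The lists were defined by genomic loci, so neighbours can share 1 locus and are not independent members. The longest GRTS run held 7 genes on chromosome V (WBcel235, 8824559 to 8848353), from *W09B7.3* at 0 to the histone genes *his-50* (10.03 RPKM) and *his-49* (9.55). Both histone genes had values identical to those of other models and may share reads with them. The longest GRH run held 6 genes on chromosome III (10428327 to 10460551), namely *smrd-1* (61.9 RPKM), *enu-3.1* (9.85), *H04D03.2* (22.03), *ecps-2* (24.2), *H04D03.4* (2.00) and *ecps-1* (31.5). Levels in a run could differ by orders of magnitude: *par-5* adjoined *M117.3* at 1.09 RPKM, and *vps-39* headed a run of 5 GRTS genes whose other 4 members were at 0.

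The 4 genes mutated in the other libraries were all above 0 in wild type. *hrde-1* (C16C10.3, WBcel235 III, 4172337 to 4176159) had 228 RPKM (217 to 239) and rank 449 among genes. *met-2* (R05D3.11, III, 8375300 to 8380848), a methyltransferase for mono- and dimethylation of H3K9, had 47.3 (43.1 to 51.9). *set-25* (Y43F4B.3, III, 13283824 to 13293090), which adds the trimethyl mark, had 17.5 (14.1 to 21.5), and *set-32* (C41G7.4, I, 9519244 to 9521275), also an H3K9 methyltransferase, had 12.5 (9.20 to 16.6). The order from *hrde-1* to *met-2* to *set-25* was larger than counting error. The intervals of *set-25* and *set-32* overlapped. *oma-1* (C09G9.6.1, IV, 8888976 to 8890999), the target gene of the RNAi experiments of the study, had 129 (118.8 to 140). *hrde-1* and *met-2* were marked oocyte and *set-25* and *set-32* intrinsic, and *set-25* was itself a member of the GRH list.

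Within their pathways, *hrde-1* stood above the other nuclear RNAi genes. *nrde-2* had 46.1 RPKM, *morc-1* 39.2, *nrde-4* 30.6, *nrde-1* 28.3 and *nrde-3*, the somatic nuclear Argonaute, 18.7. All 23 listed Argonaute genes were above 0. *wago-1* (331 RPKM) exceeded *hrde-1*, and *csr-1*, an Argonaute that associates with expressed germline genes, followed at 133. *prg-2*, a close copy of *prg-1* that is annotated as a pseudogene, had 107 RPKM and *ergo-1* 100.2. The lowest were *alg-3* (3.53) and *alg-4* (3.12), both known to act in spermatogenesis, and *wago-11* (0.57) and *wago-10* (0.26). In the list of H3K9 methylation, *hpl-2*, a heterochromatin protein 1 homologue, was highest at 87.5 RPKM, *lin-61* had 41.2, *set-26* 16.7 and *hpl-1* 5.66.

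Of the 5178 genes listed at 0, 24.1% were chemoreceptor genes. Chemoreceptor genes, which encode the receptors of single sensory neurons, were at 0 in 1246 of 1336 cases (93.3%), against 25.7% of all genes. They made up 0.0137% of the summed RPKM. In the family *srw* 112 of 114 genes were at 0, in *srh* 213 of 223 and in *str* 180 of 194. The exceptions above 10 RPKM were *sri-40* at 29.2 (22.7 to 36.95) and *srr-4* at 11.6, followed by *srv-1* at 9.21 and *srsx-34* at 3.16. C-type lectin genes were at 0 in 55.0% of 258 cases but included *clec-87* at 990.2 RPKM. F-box genes were at 0 in 97 of 362 cases (26.8%), nuclear hormone receptors in 85 of 279 (30.5%) and neuropeptide genes in 40 of 145 (27.6%), all near the share over all genes. Pseudogenes were at 0 in 399 of 727 cases (54.9%).

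The zeros were uneven along the genome. On chromosome V 2072 of 4936 genes (41.98%) were at 0, on III 344 of 2600 (13.2%), and on I, IV, X and II 15.9%, 20.4%, 22.7% and 23.3%. On the 5 autosomes, genes in the central 50% of the length of the chromosome were at 0 in 19.5% of cases and genes in the outer parts in 32.7%. On V these shares were 31.9% and 52.8%, so that the median gene of its outer parts was at 0. On X they were 21.7% and 23.9%. Chromosome V also held 110 runs of 5 or more neighbouring genes at 0 with 883 genes in all. The longest had 27 genes (WBcel235 V, 2930053 to 3024066), of which 19 were *srw* and 4 *srh* genes.

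**Figure D4:**
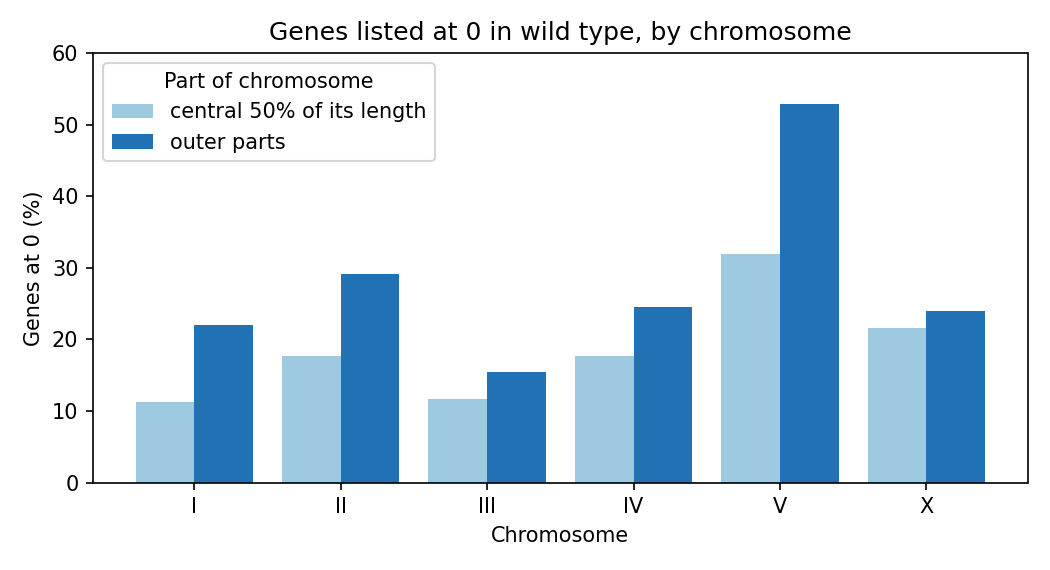
Share of genes listed at 0 in percent (y axis) in the central 50% of the length (light) and the outer parts (dark) of each chromosome (x axis). The dark bar is higher on every chromosome shown, most on V (52.8% against 31.9%) and least on X (23.9% against 21.7%).

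The X chromosome held few germline-class genes. It held 13.6% of genes with a position and 7.30% of their summed RPKM, and 2.93% of its genes had at least 100 RPKM, against 6.80% of autosomal genes. None of the 786 sperm-class genes with a position lay on X, and 23 oocyte and 32 intrinsic genes did. Their medians on X were 14.8 and 9.60 RPKM, below the medians of the same classes on each autosome, which were 45.7 to 60.1 for the oocyte class and 23.2 to 42.3 for the intrinsic class. The highest X-linked genes of these classes were *mrp-4* (59.2) and *meg-1* (76.9), a P granule protein. Unmarked genes on X had a median of 2.49 RPKM, within the range of the autosomes (0.49 to 10.5).

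Marker genes were examined for the tissues and stages that whole animals could hold. The 12 oocyte and germline markers were all above 30 RPKM, with a median of 183, led by *rme-2* (489), *puf-5* (464), *gld-1* (348) and *glh-1* (313). Body-wall muscle markers had a median of 330 RPKM, led by the myosin light chain *mlc-2* (1014), the troponin I *unc-27* (1007), *pat-10* (945) and the tropomyosin *lev-11* (849). The giant muscle proteins were low in the same list, with *unc-22* at 15.8 RPKM and *unc-89* at 7.03. Intestine markers had a median of 159 RPKM. After *vit-2* and *vit-6*, the proteases *asp-1* (1115) and *cpr-6* (527) were highest, while the transcription factor *elt-2* had 11.5 and *ftn-1* 0.68.

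Markers of neurons and of smaller tissues had lower medians. The 19 neuron markers had a median of 4.41 RPKM. The synaptobrevin *snb-1* (152) stood above *egl-3* (29.7), *egl-21* (29.7) and *unc-64* (25.6), and *tph-1*, the serotonin synthesis enzyme of a few neurons, was at 0.12. Pharynx markers had a median of 18.6 RPKM, led by *tni-4* (105), *tnc-2* (73.9), *tnt-4* (63.6) and *myo-1* (38.3). Excretory cell markers were led by *vha-5* (70.4) and *aqp-8* (57.0), those of the gonadal sheath and spermatheca by *inx-8* (50.7) and *inx-9* (18.5), and those of coelomocytes by *cup-4* (4.86).

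Markers of stage gave a mixed picture. Of 9 hypodermis and adult cuticle markers, the collagens *col-119* and *col-140* were at 2939 and 2892 RPKM, but the median was 9.57 and *bli-1*, also a collagen of the adult cuticle, had 1.67. The 4 genes of the larval moult ranged from *mlt-11* (1.14) to *nas-37* (9.90), with a median of 6.51 beside 3.03 over all genes. Of 14 early zygotic genes, which are switched on in the embryo, *vet-2* (28.5) and *vet-6* (16.4) were highest, and *hlh-27*, *med-1* and *med-2* were at 0. Of 4 genes of male tissue, *cwp-1*, *pkd-2* and *lov-1* were at 0 and *mab-3* was at 0.47 RPKM. *lov-1* was also a GRTS member.

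**Figure D5:**
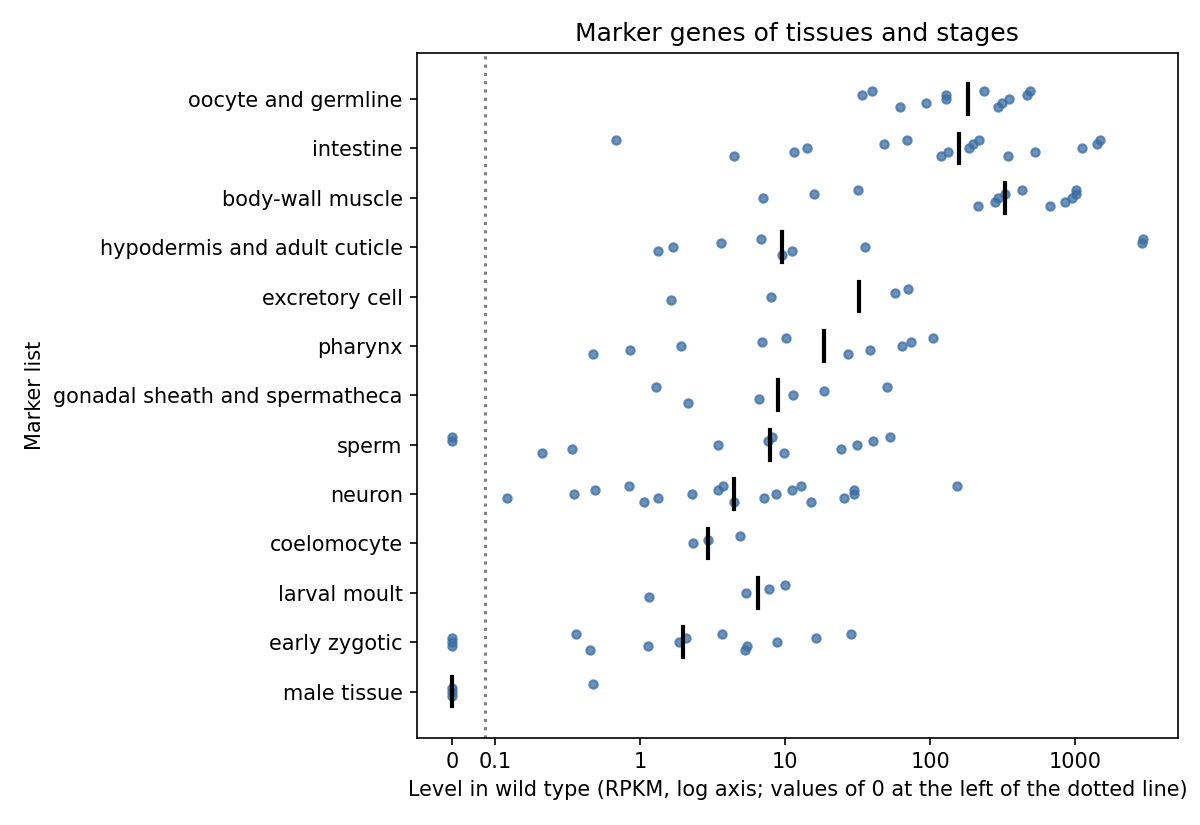
RPKM of marker genes (x axis, log scale, with values of 0 left of the dotted line) for 13 tissues and stages (y axis), 1 point a gene, with the median of each list as a bar. Oocyte and germline, intestine and body-wall muscle markers have medians of 183, 159 and 330 RPKM, and 3 of 4 markers of male tissue are at 0.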

How the data were processed

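The authors sequenced poly(A)-selected RNA as single-end 50-nt reads and aligned them with Bowtie 0.12.7 to genome release WS190. Only perfect alignments were kept, and a read with several alignments was divided evenly among them. The deposited RPKM values have 2 decimals and are scaled by library depth. The wild-type column was identified from the study's list of sequencing libraries. The strand that was counted is not given in the sources used here. The deposited marks for germline class and target list were used as they stand, and the source of the class marks is not given in the sources used here.

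Sequence names were looked up in WBcel235 (Ensembl release 115, with RefSeq symbols where Ensembl gave none or gave several genes 1 name), where 20315 of 20911 models (97.2%) had an entry. Coordinates are those of WBcel235, not of WS190. Depth was inferred from the steps of low values. Models without a transcript number came out whole within 0.1 read more often with coding length than with exon length (48.3% against 25.7%), and those with a number less often (14.4% against 35.4%). The authors' RPKM may therefore rest on different kinds of length, and read numbers are approximate.

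For genes with several models (616) the highest was taken as the level of the gene. Classes and target lists were counted over models, and other lists, chromosomes and families over genes. Intervals of single levels are exact Poisson intervals, those of shares follow from Poisson variance, and those of medians are binomial over members, which are not replicates. Identical values in all 5 libraries (1265 of 17933 models not at 0 throughout) were taken as a sign that models may share reads. Single levels of these models are uncertain. Alignments were not examined, so equal values can also arise otherwise, and copies with unequal values, such as the *msp* genes, can share reads. No test was run. The estimates of depth and shares were tested on simulated data with whole read numbers and known lengths. Divided reads and mixed kinds of length were not simulated. Python 3.11.15, pandas 2.3.3, numpy 2.4.6 and scipy 1.17.1 were used.

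The members and lists were chosen with earlier results of these data known. Named genes are the 30 highest genes, the 10 highest of each germline class and target list, the 4 highest and those at 0 of each list (examples where many), and *met-2*, *set-25*, *set-32*, *hrde-1* and *oma-1*. Other names, such as low members of lists, neighbouring genes and members with a mark that goes against their role, were chosen after their values were seen. The names *peel-1*, *tni-2*, *cha-1*, *col-19* and *hpo-24* were not matched, and no mitochondrially encoded model was in the table. Alternatives were the highest model of each gene, RPKM times length, leaving out the highest models, and other limits for low values.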

Additional observations from a re-analysis of the deposited data

How the results depend on the processing

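With the highest model of each gene, the sperm, oocyte, intrinsic and unmarked classes held 0.615%, 6.48%, 6.03% and 86.9% of the summed RPKM, the GRH list 0.627% and the 10 most abundant 5.21%. With RPKM times length, which weights genes by reads, the shares were 0.382%, 7.19%, 7.03% and 85.4%, with 0.0879% for GRTS, 0.623% for GRH and 6.89% for the 10 most abundant. Without the 10 most abundant models the 4 classes held 0.618%, 6.55%, 6.08% and 86.8%. Without its highest member the GRTS list held 0.0624% and the GRH list 0.475%. The order of the classes was the same under these alternatives. Among models of at least 1 RPKM, the medians were 3.19 RPKM (sperm), 40.5 (intrinsic), 13.2 (unmarked), 4.13 (GRTS) and 13.7 (GRH), since that limit removes low members by construction. The count of zeros depended on depth: 6621 models were at 1 read or less, zeros included. No paired analysis was possible because wild type had 1 library and the results come from no test. Depth limits statements on models under about 1.23 RPKM at 1 kb, where a value of 0 does not show that a gene is silent.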

Other observations

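Genes with 1 copy on an autosome and 1 on the X chromosome were compared after the low level of X-linked germline genes had been seen. Of 29 such pairs, taken from gene names that differ only in the digit after the point, the autosomal copy had the higher RPKM in 24 and the X-linked copy in 5. Counting error was not considered, and some pairs were close. *hst-3.1* had 0.50 RPKM against 0.47 for the X-linked *hst-3.2*, and *slc-9B.2* had 1.87 against 2.39 for the X-linked *slc-9B.1*. Examples were *rpl-25.2* on I (1533 RPKM) against *rpl-25.1* (98.3), *eef-1A.1* on III (5349) against *eef-1A.2* (151), and *wdr-5.1* on III (74.8) against *wdr-5.2* (4.80). The X-linked copy was higher for *pfk-1.1* (26.5 against 1.04 for *pfk-1.2*), *selt-1.1* (45.8 against 2.54) and *serp-1.1* (186 against 46.6). Pairs that share a name need not be copies of each other in sequence, which was not examined.

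Nearly all histone genes had reads in this poly(A)-selected library. RNA without a poly(A) tail is not measured by such a library, so these values need not give the full level of histone mRNA. Of 70 histone genes 69 were above 0, with a median of 15.6 RPKM, and *his-70* was at 0. The highest were *his-72* (205) and *his-74* (177), both histone H3.3 genes, then *his-46* and *his-56* at an identical 126. Of the 70, 30 shared identical values with another model, so that their single levels are uncertain.

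The 9 genes for cyclins and *cdk-1* had a median of 138 RPKM, with *cyb-3* at 605 RPKM, *cyb-2.2* at 192, *cdk-1* at 191 and *cyb-1* at 174, while *cyd-1*, cyclin D, had 5.75 and *cya-2* was at 0. Among 145 neuropeptide genes, *nlp-27* (394 RPKM), *nlp-24* (242), *nlp-40* (224) and *nlp-33* (133) were highest, and the median was 2.77. Among 527 immunity and detoxification genes, 196 were at 0 and the median was 0.78 RPKM, but *clec-87* (990.2), *spp-17* (948), *lys-4* (544) and *spp-5* (494) were abundant. The highest F-box genes were *fbxa-215* (169) and *fbxc-44* (52.3), and the highest of the MATH and BTB family was *bath-42* (147). The highest nuclear hormone receptors were *nhr-114* (74.4) and *nhr-68* (37.6). Of 9 genes used as references in quantitative PCR, the levels ran from *pmp-3* (40.7) and *ama-1* (46.3) to *eef-1A.1*.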
